A study of Homo sapiens with 3 samples.

Results

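The genes described here encode the collagens and 9 glycoproteins of the extracellular matrix. They were defined by symbol, as GENCODE protein-coding genes whose symbol reads COL, a number, A and a number. SPARC, SPP1, POSTN, TNC, THBS1, THBS2, LUM, DCN and BGN were added by name. The rule used no peak values, but it was set with earlier results of these data known. The rule found 53 genes, 44 collagens and 9 glycoproteins, among the 20033 protein-coding genes on chromosomes 1 to 22, X and Y. To map where the zinc finger protein ZBTB11 sits on chromatin, the study carried out ChIP-seq on NCI-H1299 cells, a human lung cancer line. All 3 libraries came from these cells, which were of genotype WT and received no treatment. One was immunoprecipitated with an antibody against ZBTB11, one with IgG as the negative control, and the Input library carried no antibody and was not analysed here. With 1 library per antibody no difference below has a replicate check, so no test is given and each value describes these libraries.

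Collagens are long proteins whose chains wind around each other in the endoplasmic reticulum after their prolines and lysines have been hydroxylated. Fibrillar collagens form the cables of bone, skin and tendon, collagen IV forms the sheet of the basement membrane, and FACIT collagens (fibril-associated collagens with interrupted helices) sit on the surface of fibrils. Matricellular proteins such as SPARC and tenascin tune how cells hold on to this scaffold, and the small proteoglycans lumican, decorin and biglycan bind collagen fibrils. Tumor cells cross and remodel such matrix during invasion, and the study singled out genes of extracellular matrix organization among the putative targets of ZBTB11.

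A peak is a stretch of the genome where immunoprecipitated DNA fragments pile up above the local background. For each gene, the ZBTB11 peak with the smallest p-value among those reaching within 3 kb of any annotated transcript start was taken as its strongest peak. Its height is given in fragments that pile up at the summit, and the background is the number expected there. On those chromosomes, 346891 ZBTB11 peaks were listed with a median of 5 fragments, and the lowest background was 1.35 fragments. The IgG list as used here has peaks on chromosomes 1, 10, 21 and Y only and may be incomplete, so its 26712 peaks cannot be set against the ZBTB11 total. The IgG peaks had a median of 6 fragments and a lowest background of 1.55. Intervals cover counting error only.

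Nearly every matrix gene had a ZBTB11 peak close to a start, but these peaks were low. A peak was listed for 51 of the 53 genes (96.2%, Wilson 95% interval 87.2% to 99.0%), beside 87.7% of all protein-coding genes. Among genes with at least 4 annotated starts, a peak was listed for 45 of 47 matrix genes (95.7%), beside 95.1% of all protein-coding genes. The heights of the 51 strongest peaks ran from 3 to 14 fragments with a median of 6, whereas the median over all protein-coding genes with a peak was 11 and the highest was 515. At a p-value of 1e-05 or less, 5 of the 53 genes were called (9.43%, interval 4.10% to 20.3%), beside 46.9% of all protein-coding genes. At a q-value of 0.05 or less, 15 were called (28.3%, interval 18.0% to 41.6%), beside 55.3%. Of all protein-coding genes, 33.4% had a strongest peak with a smaller p-value than that of COL16A1, the leading gene of the list. The strongest peak had 6 fragments or fewer in 62.7% of the matrix genes with a peak and in 28.7% of all protein-coding genes with one. Within the list, 2 collagen IV pairs had their strongest peak in common, so the 51 genes rest on 49 distinct peaks.

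**Figure D1:**
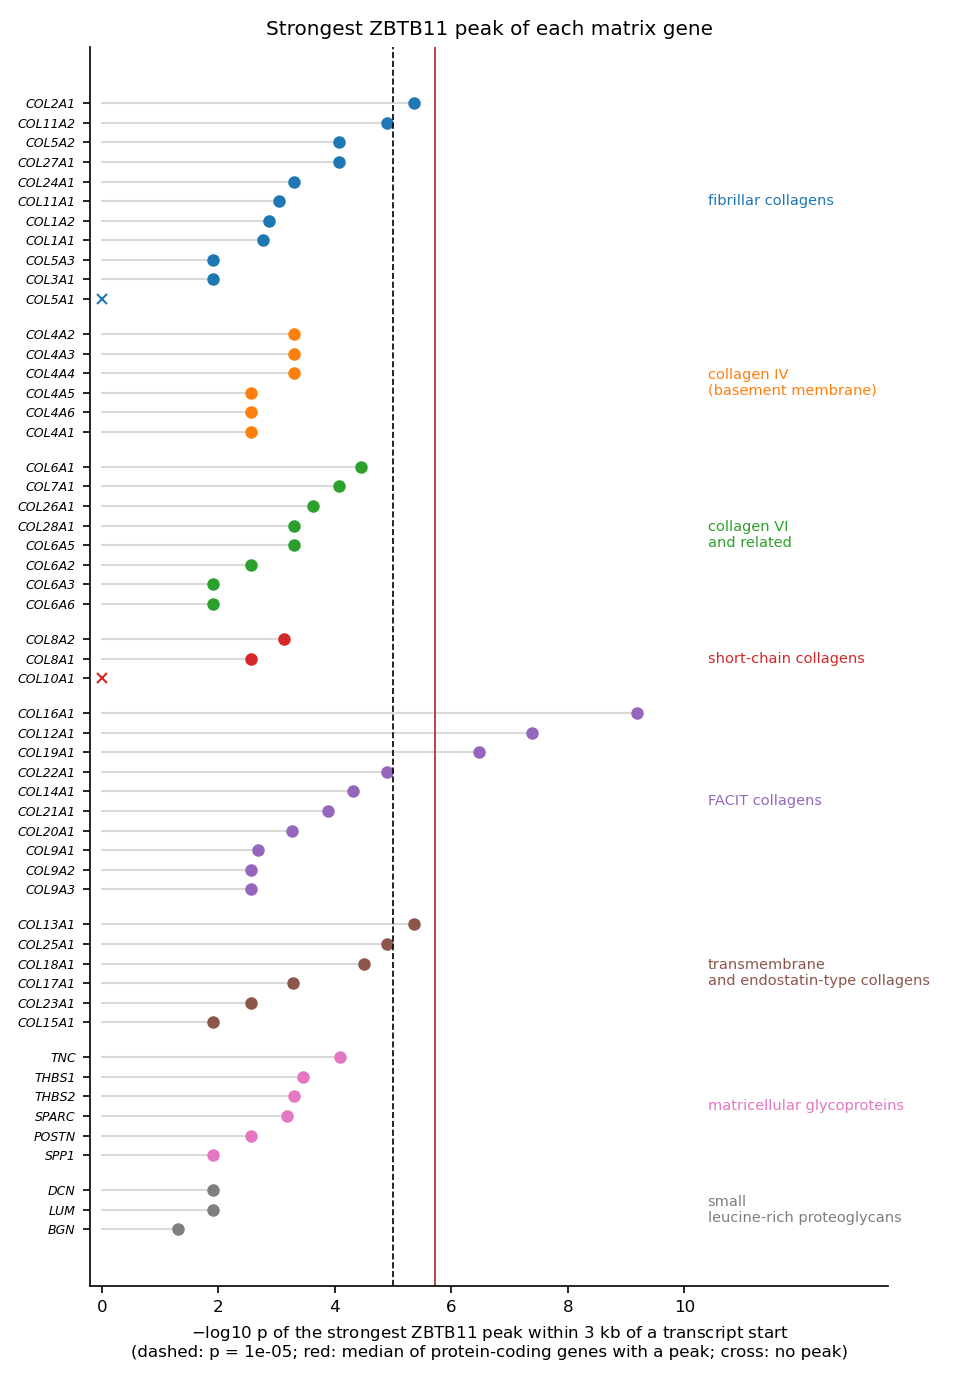
Strongest ZBTB11 peak of each of the 53 genes, 1 row per gene grouped by family, with the −log10 p of the peak on the x axis. Only 5 points lie right of the dashed line at a p-value of 1e-05, 3 of them FACIT collagens, and the crosses mark COL5A1 and COL10A1, which had no peak within 3 kb of a start.

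**Figure D2:**
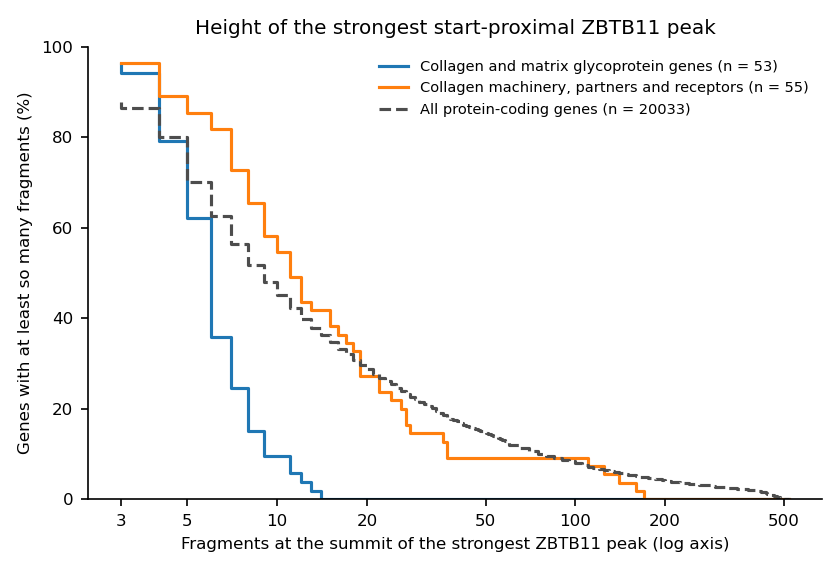
Share of genes (y axis, %) whose strongest ZBTB11 peak near a start holds at least the number of fragments on the logarithmic x axis. No matrix gene reached 15 fragments, a height that 36.4% of all 20033 protein-coding genes reached.

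The FACIT collagens held the 3 strongest peaks of the list, and all 10 of them had a peak near a start, with 5 to 14 fragments. COL16A1 (chromosome 1), which codes for a minor collagen associated with fibrils, led with a −log10 p of 9.19, from 13 fragments where 1.47 were expected, and its fold enrichment was 5.67. Its peak ranked 8134 in the ZBTB11 list and lay at 31673100 to 31673517 in hg38, 94 bp upstream of an internal transcript start and 30697 bp downstream of the canonical start, in an intron of the canonical transcript. COL12A1 (chromosome 6), whose product binds along collagen I fibrils, had the highest count of the list with 14 fragments, but over a background of 2.40, so that its −log10 p was 7.39. This peak covered a start, with the summit 526 bp downstream of it in an intron. COL19A1 (chromosome 6) had 12 fragments over 2.09 and a −log10 p of 6.47. Its summit lay 258 bp downstream of its own canonical start but only 121 bp from a start of LMBRD1, a gene for a lysosomal membrane protein that transports cobalamin, and this peak cannot be given to either gene alone. The next FACIT collagens stood lower, COL22A1 with 8 fragments and a −log10 p of 4.90, and COL14A1 with 9 fragments and 4.31. COL14A1 (chromosome 8) thus passed the q-value threshold, with a summit 1918 bp upstream of its canonical start, in an intron of another transcript. The background there was 2.01 fragments. The study reported COL14A1, a gene of matrix organization, as coregulated by ZBTB11 and its partner protein SET. It described the expression changes of COL14A1 as relatively weak. The remaining 5, COL21A1, COL20A1, COL9A1, COL9A2 and COL9A3, held 5 to 7 fragments with q-values above 0.05.

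Of the 11 fibrillar collagens, 1 passed a p-value of 1e-05 and 4 passed a q-value of 0.05. COL2A1 (chromosome 12), the main collagen of cartilage, had 11 fragments over a background of 2.24 and a −log10 p of 5.36, but its summit lay 2549 bp downstream of the nearest start. COL11A2, a partner of collagen II in cartilage fibrils, stood at 8 fragments and a −log10 p of 4.90, and COL5A2 and COL27A1 at 7 fragments and 4.07 each. The collagen I genes, whose chains form the most abundant fibrils of the body, had low peaks. COL1A1 and COL1A2 each held 6 fragments, over backgrounds of 1.68 and 1.60, with −log10 p of 2.76 and 2.87. COL3A1 and COL5A3 held 4 fragments each, which is 1 above the lowest pileup in the list. COL5A1 had no peak within 3 kb of any of its 6 starts.

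Collagen VI and the collagens grouped with it (COL7A1, COL26A1 and COL28A1) had a peak at each of their 8 genes, none of which passed a p-value of 1e-05 and 2 of which passed a q-value of 0.05. COL6A1 (chromosome 21), which encodes a chain of the beaded filaments around cells, held 8 fragments over 1.55 with the summit 229 bp upstream of its canonical start. COL7A1 (chromosome 3), the collagen of the anchoring fibrils below the epidermis, held 7 fragments with the summit 993 bp upstream of an internal start and 28997 bp inside the gene. COL26A1 held 9 fragments, but over a background of 2.45, and its −log10 p was 3.62. COL6A2, COL6A3, COL6A5, COL6A6 and COL28A1 held 4 to 6 fragments.

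The transmembrane collagens and the endostatin-bearing collagens XV and XVIII had peaks of 4 to 11 fragments at all 6 genes. COL13A1 (chromosome 10), a collagen anchored in the plasma membrane, held 11 fragments over 2.24 with a −log10 p of 5.36, and its summit lay in the 5' UTR, 93 bp upstream of the nearest of 34 annotated starts. COL25A1 held 8 fragments with the summit 216 bp upstream of its nearest start, and a start of the divergent noncoding gene COL25A1-DT lay nearer, at 67 bp. COL18A1 (chromosome 21), the source of endostatin, held 9 fragments 500 bp downstream of its canonical start. COL17A1, COL23A1 and COL15A1 held 7, 5 and 4 fragments with q-values above 0.05. Among the short-chain collagens, COL8A2 and COL8A1 held 6 and 5 fragments. COL10A1, the collagen of hypertrophic cartilage, had none within 3 kb, but a peak of 7 fragments with a −log10 p of 3.59 ended 3012 bp from its nearest start, just outside the window. The nearest peak to a start of COL5A1 lay 3783 bp away with 4 fragments. Just inside the window were COL9A1, COL11A2 and POSTN, whose strongest peaks began 2877, 2849 and 2756 bp from a start.

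Each of the 9 glycoprotein genes had a peak, with 3 to 8 fragments, and none passed a p-value of 1e-05, beside 46.9% of all protein-coding genes. TNC, which encodes tenascin C, held 8 fragments over 1.73 with a −log10 p of 4.09 and was the only glycoprotein gene to pass a q-value of 0.05, with its summit 2090 bp upstream of an internal start. THBS1, encoding thrombospondin 1, held 7 fragments 306 bp upstream of its canonical start, and THBS2 held 6. The study reported lower THBS1 expression after ZBTB11 knockdown, reversed when the protein PRRG2 was depleted too. It treated THBS1 as a target gene of the regulator YAP1. SPARC (chromosome 5), which encodes a collagen-binding protein, held 6 fragments over 1.42, with a −log10 p of 3.17 and a 2.89-fold enrichment. Its summit lay in an intron, 346 bp from an internal start and 15432 bp from the canonical start. The study reported the expression of SPARC, SPP1 and COL14A1 as coregulated by ZBTB11 and SET in these cells. It described similar regulation in another lung cancer line. In its assays depleting SPARC did not clearly change migration or invasion. SPP1 (chromosome 4), encoding osteopontin, held 4 fragments over 1.35 with the summit 868 bp upstream. POSTN, encoding periostin, held 5, and LUM and DCN held 4 each. BGN (chromosome X) was the lowest of the list with 3 fragments and a −log10 p of 1.31, and its summit lay in a coding exon. For SPARC, SPP1 and COL14A1 the IgG list offers no control, since it has no peaks on chromosomes 4, 5 and 8.

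The 6 collagen IV genes form 3 pairs that start next to each other and run in opposite directions, and each pair encodes chains of the same network. Among all 984 head-to-head pairs of protein-coding genes, with canonical starts at most 1 kb apart, 81.9% had a ZBTB11 peak at a p-value of 1e-05 or less near a start of either gene, and 89.6% had the same strongest peak for both genes. None of the 3 collagen IV pairs reached that p-value. COL4A1 and COL4A2 (chromosome 13), the chains of the common basement membrane, start 127 bp apart, and no peak was listed within 4 kb on either side of their midpoint. The nearest listed peak ended 42975 bp from the canonical starts and held 4 fragments. The strongest peak assigned to COL4A1 held 5 fragments at an internal start 95460 bp downstream of the canonical one, and that of COL4A2 held 6 fragments, 127791 bp downstream. COL4A3 and COL4A4 (chromosome 2), which encode chains of the kidney glomerulus and the lung alveolus, start 419 bp apart and had the same strongest peak. It held 6 fragments over 1.35 (exact Poisson 95% interval of the count 2.20 to 13.1), with a −log10 p of 3.29, and its summit lay 259 bp downstream of the start of COL4A4 and at −678 bp from that of COL4A3. COL4A5 and COL4A6 (chromosome X) have canonical starts 1416 bp apart and other starts as close as 341 bp, so they fall outside the definition of 1 kb. Their strongest peak, again the same for both genes, held 5 fragments (interval 1.62 to 11.7) with a −log10 p of 2.57 between the canonical starts, at −120 bp from COL4A5 and −221 bp from the nearest start of COL4A6. The interval between the canonical starts of COL4A1 and COL4A2, and the 101 bp around the summits of the other pairs, are printed because both genes of a pair lie closest to each other, or share their peak, there. They are read 5′ to 3′ on the plus strand of hg38, and capitals mark CpG dinucleotides, the methylatable sites that are dense in many shared promoters.
COL4A1/COL4A2, chr13:110307157-110307284: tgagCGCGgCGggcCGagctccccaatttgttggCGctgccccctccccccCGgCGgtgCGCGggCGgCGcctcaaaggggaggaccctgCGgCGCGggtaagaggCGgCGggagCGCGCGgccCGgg
COL4A3/COL4A4, chr2:227163896-227163996: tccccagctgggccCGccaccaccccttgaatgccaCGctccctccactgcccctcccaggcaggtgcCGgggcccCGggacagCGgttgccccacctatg
COL4A5/COL4A6, chrX:108439668-108439768: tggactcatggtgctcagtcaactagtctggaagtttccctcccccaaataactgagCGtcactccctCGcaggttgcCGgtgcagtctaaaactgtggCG
The COL4A1/COL4A2 interval holds 20 CpG in 128 bp and is 79.7% G and C, whereas the other windows hold 5 and 4 CpG in 101 bp. None of these stretches holds CCGGAAG or CAGGAAG on either strand, the forms of the ZBTB11 consensus described next.

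**Figure D3:**
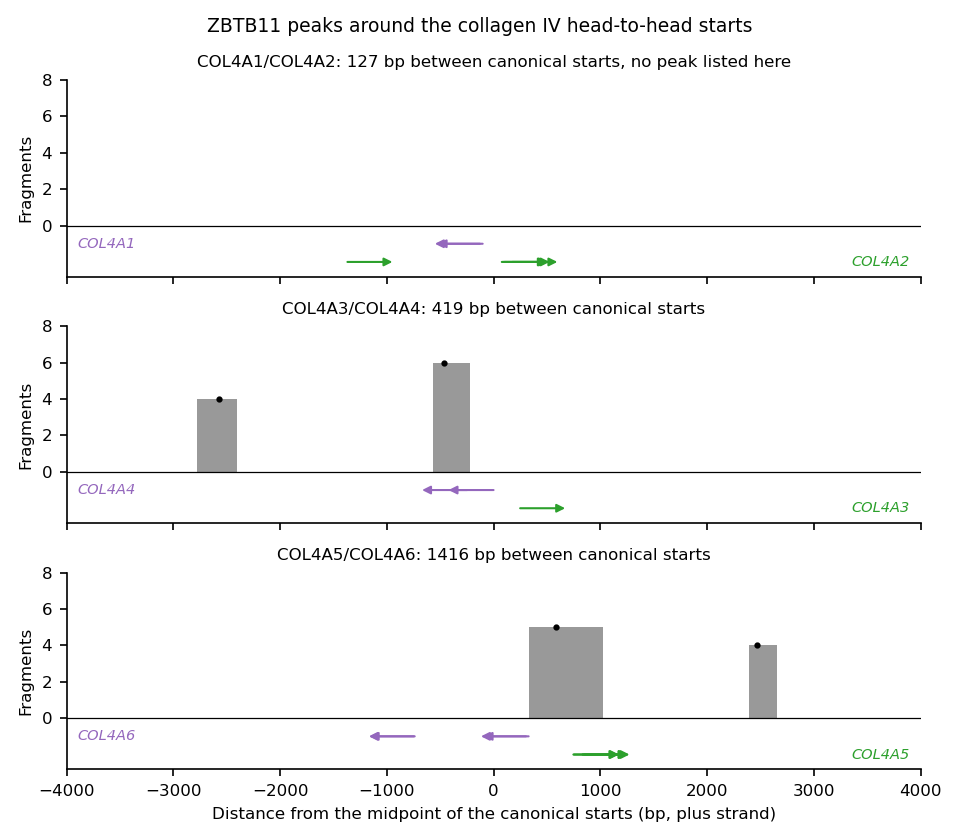
ZBTB11 peaks around the starts of the 3 collagen IV pairs, by distance in bp from the midpoint of the canonical starts. Grey bars span the listed peaks, with the height of the bar giving fragments at the summit (black dot), and arrows mark annotated starts. The COL4A1/COL4A2 panel is empty, and the other panels hold peaks of 4 to 6 fragments.

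The study gave CCGGAAG and CAGGAAG as the forms of a consensus at loci bound by ZBTB11. Both forms were searched on both strands within 50 bp of the summit. A match was found at 3 of the 51 strongest peaks of the matrix genes (5.88%, Wilson 95% interval 2.02% to 15.9%), beside 15.8% of those of all protein-coding genes. Among strongest peaks that passed the p-value of 1e-05, it was 1 of 5 in the matrix genes beside 25.2%. Among those that did not pass, it was 2 of 46 (4.35%) beside 5.15% of 8182, so the shares were close for peaks of like strength. The 3 genes with a match were COL16A1, COL7A1 and BGN, with 13, 7 and 3 fragments. In each case the match was CTTCCTG, the reverse complement of CAGGAAG. The other form, CCGGAAG, was found at none of the 51 summits, beside 10.5% of the summits of all protein-coding genes. This share was not split by peak strength, and 46 of the 51 matrix peaks did not pass the p-value of 1e-05. In the 300 bp promoter around the canonical start (250 bp before and 50 bp after), 5 of the 53 genes held the consensus, beside 24.7% of all protein-coding genes. These were COL13A1, COL20A1, COL6A2, POSTN and THBS1. The 3 summit windows with a match are printed in the direction of the gene, with the match in capitals, beside those of SERPINH1, P4HB and SEC23A, which encode a collagen chaperone, a subunit of prolyl 4-hydroxylase and a coat protein of vesicles that carry collagen.
COL16A1, chr1:31673270-31673370, minus strand: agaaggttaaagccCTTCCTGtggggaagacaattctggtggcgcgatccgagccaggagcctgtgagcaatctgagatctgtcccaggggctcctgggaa
COL7A1, chr3:48566282-48566382, minus strand: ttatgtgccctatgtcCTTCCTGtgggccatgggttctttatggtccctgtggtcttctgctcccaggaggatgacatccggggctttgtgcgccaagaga
BGN, chrX:153507061-153507161, plus strand: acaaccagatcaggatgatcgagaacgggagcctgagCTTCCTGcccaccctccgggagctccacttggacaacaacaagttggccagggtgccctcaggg
SERPINH1, chr11:75563169-75563269, plus strand: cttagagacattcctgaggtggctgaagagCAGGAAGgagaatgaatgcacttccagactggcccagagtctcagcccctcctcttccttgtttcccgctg
P4HB, chr17:81861000-81861100, minus strand: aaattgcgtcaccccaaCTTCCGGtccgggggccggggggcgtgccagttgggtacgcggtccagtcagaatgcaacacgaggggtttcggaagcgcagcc
SEC23A, chr14:39103397-39103497, minus strand: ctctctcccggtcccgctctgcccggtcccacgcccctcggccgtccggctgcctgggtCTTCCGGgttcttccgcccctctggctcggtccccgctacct
The match in the COL16A1 window was centred 33 bp before the summit, that of COL7A1 31 bp before and that of BGN 10 bp before. P4HB and SEC23A carry the CCGGAAG form, in windows with 10 and 11 CpG. SERPINH1 carries CAGGAAG in a window with 1 CpG, and the windows of COL16A1, COL7A1 and BGN hold 3, 2 and 3 CpG.

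The strongest peaks of the matrix genes often lay away from the main start. Counting all annotated starts of a gene, 16 of the 51 summits (31.4%) lay within 500 bp of a start, beside 63.2% for all protein-coding genes, and the median distance was 1211 bp against 258 bp. Further, 27 of the 51 summits (52.9%) lay more than 3 kb from the canonical start, near an alternative start, beside 20.7%. These genes are long and have many transcripts, with a median length of 98.6 kb and 8 starts against 27.5 kb and 5 starts over all protein-coding genes. A peak had 23.9 kb of sequence to fall in for the median matrix gene and 12.1 kb for the median protein-coding gene. When only genes with at least 4 starts were compared, 5 of 47 matrix genes (10.6%) and 56.6% of all protein-coding genes had a peak at a p-value of 1e-05 or less. By annotation, 34 of the 51 summits were in introns, 14 outside the gene, 2 in coding exons and 1 in a 5' UTR. The nearest protein-coding start belonged to the matrix gene itself for 48 of the 51 peaks, beside 86.3% for all protein-coding genes with a peak, and the exceptions were COL19A1, COL4A3 and COL4A6.

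Promoters rich in CpG more often carried a ZBTB11 peak at that p-value over the whole annotation, so the CpG content of the matrix promoters is given beside the counts. The ratio of observed to expected CpG in the promoter had a median of 0.597 in the matrix genes and 0.775 in all protein-coding genes. With a ratio below 0.4, 0 of 14 matrix genes had such a peak, beside 10.8% of all such genes. Between 0.4 and 0.8 it was 4 of 28 (14.3%) beside 46.7%, and at 0.8 or more it was 1 of 11 (9.09%) beside 65.9%. The 11 matrix genes with a ratio of 0.8 or more ran from COL12A1 (ratio 1.01, 14 fragments) through COL18A1 (0.897, 9 fragments), COL26A1 (0.876, 9 fragments) and COL25A1 (1.10, 8 fragments) to COL4A1 (1.02, 5 fragments), COL15A1 (1.08, 4 fragments) and COL5A1 (0.877, no peak). Expression of these genes was not part of these files, and its part in the result was not tested.

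The IgG list allows a control for the 10 collagen genes on chromosomes 1, 10 and 21. On these chromosomes, 2 of the 10 genes, COL16A1 and COL13A1, had a ZBTB11 peak at a p-value of 1e-05 or less, beside 44.9% of protein-coding genes, and all 10 had some ZBTB11 peak, beside 87.3%. An IgG peak near a start was listed for 7 of the 10, beside 68.7%, and none of these reached a p-value of 1e-05, beside 1.99%. COL16A1 held 13 ZBTB11 fragments (exact Poisson 95% interval 6.92 to 22.2) and 7 IgG fragments (2.81 to 14.4). COL13A1 held 11 (5.49 to 19.7) against 8 (3.45 to 15.8), and COL6A1 held 8 against 6. The order was the other way for COL17A1 with 7 ZBTB11 and 8 IgG fragments, COL8A2 with 6 and 8, and COL9A2 and COL6A2 with 5 and 6 each. For COL18A1, COL24A1 and COL11A1, with 9, 6 and 6 ZBTB11 fragments, no IgG peak was listed. These fragment counts are not scaled between the libraries and come from different sites, so they are given side by side with no test. None of the 10 strongest ZBTB11 peaks overlapped an IgG peak by even 1 bp, beside 27.9% of the strongest peaks of protein-coding genes with a ZBTB11 peak on these chromosomes. That share is not a like comparison, because overlap was more frequent at stronger peaks. It was found for 544 of the 1353 genes that passed a p-value of 1e-05, against 733 of all 2630. Only 2 of the 10 collagen genes passed it. Of the 28 IgG peaks near starts of the 10 genes, 5 overlapped some ZBTB11 peak.

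**Figure D4:**
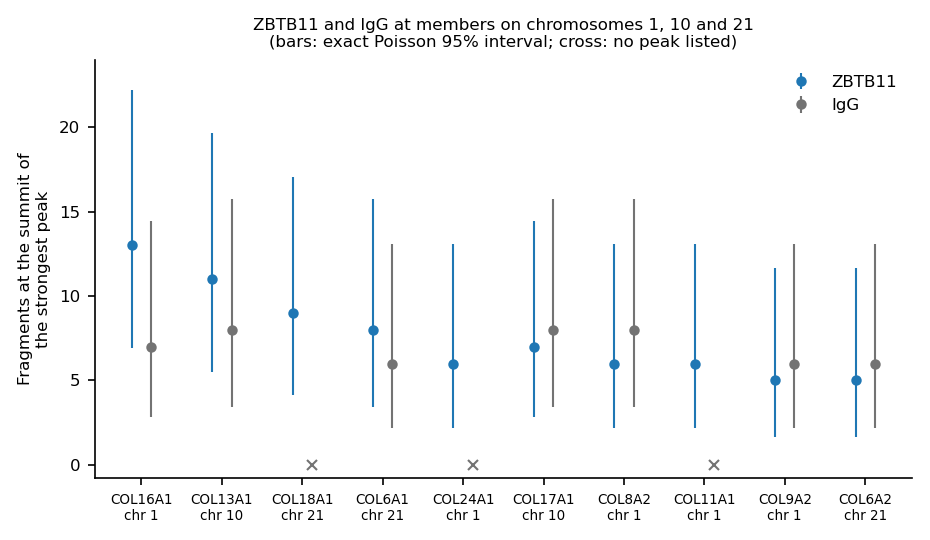
Fragments at the summit of the strongest ZBTB11 (blue) and IgG (grey) peak near a start of the 10 collagen genes on chromosomes 1, 10 and 21. Bars are exact Poisson 95% intervals and crosses mark genes with no listed IgG peak. Counts are not scaled between the libraries, and the ZBTB11 point is the higher one at 3 of the 7 genes with both values.

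Away from their starts, the long collagen genes held further peaks. At a q-value of 0.05 or less, 15 of the 53 genes (28.3%) had a peak in the gene body more than 3 kb from each of their own starts, beside 16.8% of all protein-coding genes, and 13 had one more than 3 kb from every annotated start, beside 13.6%. Counting body peaks at any listed p-value, the median matrix gene, which is also longer, held 5 against 2 for all protein-coding genes. The strongest was in an intron of COL23A1, with 10 fragments over 1.35 and a −log10 p of 6.69, 36681 bp from the nearest start. It exceeded the 5 fragments of the strongest peak near a COL23A1 start. COL19A1 followed with 10 fragments over 1.83 and a −log10 p of 5.43. COL28A1, COL6A6, COL24A1 and COL18A1 had intronic peaks of 8 fragments, each with a −log10 p of 4.90. That of COL18A1 lay 2600 bp from a start of COL18A1-AS1, so it was not away from every annotated start. COL13A1 and TNC had intronic peaks of 8 fragments with 4.68 and 4.56. COL14A1 also had a peak of 8 fragments in an intron of another transcript, 4595 bp from a start, with a −log10 p of 4.09. SPARC and SPP1 had no gene-body peak at that q-value.

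Genes whose products make, fold and hold collagen were, as a set, close to all protein-coding genes at a p-value of 1e-05. At a q-value of 0.05 their share was higher. Across 55 such genes, 32 (58.2%, Wilson 95% interval 45.0% to 70.3%) had a peak at a p-value of 1e-05 or less. The share of all protein-coding genes, 46.9%, lies inside that interval. With a q-value of 0.05 or less, 39 of the 55 passed (70.9%, interval 57.9% to 81.2%). The share of all protein-coding genes, 55.3%, lies below that interval. The 55 genes had a median of 9 starts and 19.7 kb of sequence for a peak to fall in. Over all protein-coding genes these medians were 5 starts and 12.1 kb. The share called at a p-value of 1e-05 rose with the number of starts over all protein-coding genes, to 56.6% with at least 4. No comparison matched for starts was made for this set. The median height of the strongest peaks in the set was 12 fragments, beside 11. The consensus lay at the summit in 5 of the 53 with a peak (9.43%), beside 15.8%. By the p-value, the 3 lists for making, folding and crosslinking collagen had called shares above 46.9%. Those of basement membrane partners (35.7%, median 8 fragments) and receptors (37.5%, median 9 fragments) were below it. The Wilson 95% interval of each of the 5 lists includes 46.9%. By the q-value of 0.05, 9 of 10 trimming and crosslinking genes passed (interval 59.6% to 98.2%), beside 55.3% of all protein-coding genes. Of these 9, LOXL3 had its summit nearest to a start of DOK1. An interval over so few genes of 1 library is no test, and this list was singled out among 5 after its value was seen. The intervals of the other lists include 55.3%. Genes named as called below passed the p-value of 1e-05. Of 14 genes for hydroxylation and glycosylation, 10 were called, from PLOD3, a lysyl hydroxylase with 111 fragments, to P4HA3, a prolyl hydroxylase subunit with 4, which was not called. Of 9 genes for folding and export, 7 were called. SEC23A led these with 170 fragments, 204 bp upstream of its start, PPIB, which speeds the folding of collagen, held 162 and SERPINH1 held 36, whereas KDELR2, a receptor that returns chaperones to the endoplasmic reticulum, held 7 and was not called. Of 10 genes for trimming and crosslinking, 7 were called. Among them, LOXL2, a crosslinking lysyl oxidase, held 27 fragments with a −log10 p of 23.4, LOXL4 had no peak, and TLL2, a protease that trims procollagen, had the weakest peak with 7 fragments. The partners of collagen IV in the basement membrane were mixed, with 5 of 14 laminin, nidogen and perlecan genes called. The summit of the highest, at LAMB2 with 125 fragments, lay nearest to a start of the ubiquitin protease gene USP19, and LAMC3 was the lowest with 4 fragments. Of 8 collagen receptor genes, 3 were called, with 141 fragments at ITGB1, the common beta chain of the collagen-binding integrins, 5 at ITGA11, which was not called, and no peak at GP6, the collagen receptor of platelets. FKBP10 and P3H4 shared a peak of 19 fragments, so their calls are not independent. Both sets of genes come from the same library, and the difference between them has no replicate check.

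**Figure D5:**
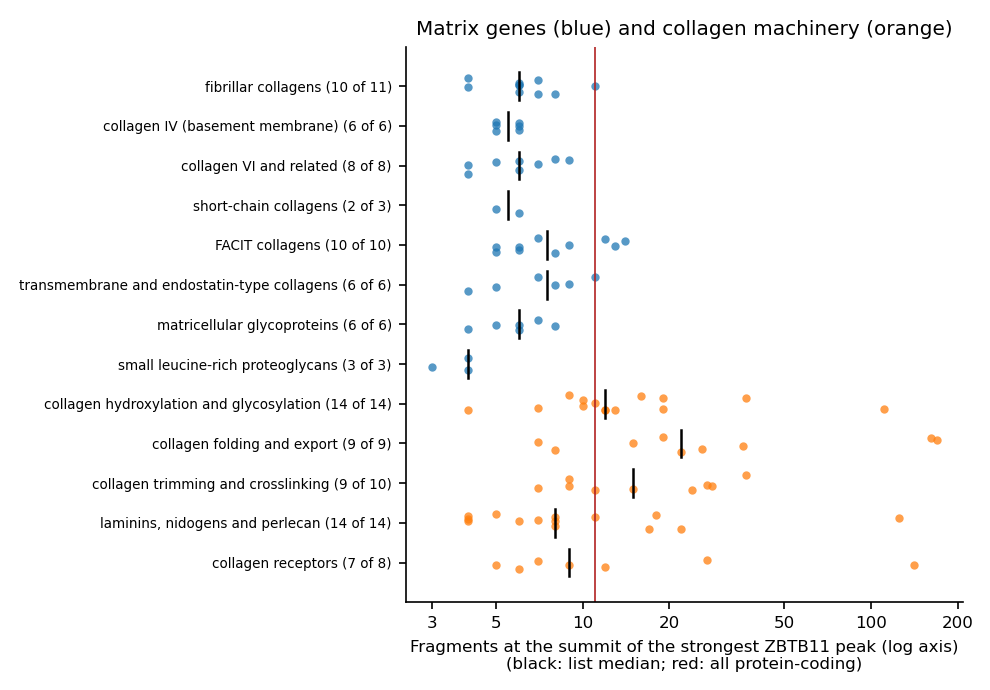
Fragments at the summit of the strongest ZBTB11 peak near a start (logarithmic x axis) for each gene of the 8 matrix families (blue) and of the 5 lists of collagen machinery, partners and receptors (orange), with the number of genes that had a peak beside each name. Every matrix family has a median of 4 to 7.5 fragments, left of the median of 11 over all protein-coding genes, and the list medians of the machinery run from 8 to 22.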

How the data were processed

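According to the study's methods, both ends of each fragment were sequenced, reads were aligned to hg38 with BWA, and peaks were called with MACS for each antibody independently at a p-value below 0.05. The fold enrichment of a peak is the ratio of its summit to the local background, as deposited. The authors deposited a −log10 p and a −log10 q for every peak. The deposited score equals 10 times the −log10 p, truncated, and was not used. Column 8 (−log10 p) ranked the peaks.

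Fragments and background at a summit were solved from fold enrichment and p-value, with a Poisson background and a pseudocount of 1. For 100% of peaks in both lists the solved values gave back −log10 p to within 0.001, and the step was tested on simulated data. Genes and starts came from GENCODE release 44, whose build matches that of the files, and the canonical start is that of the Ensembl canonical transcript. Introns and exons refer to the canonical transcript where it covers the summit, and otherwise to other transcripts of the gene. The background for every count was all protein-coding genes under the same rule. The members, lists and thresholds were chosen with earlier results of these data known. Values are given in full for the collagen IV genes, members passing a q-value of 0.05 (the 12 smallest p-values in full), members on chromosomes 1, 10 and 21, members without a peak, the lowest 3 members with a peak, SPARC, SPP1 and COL14A1, and for each pathway list the genes with the smallest and largest p-value. Genes beyond this rule that are named were chosen after their values were seen. Alternatives were the start window, the canonical start alone, the summit in place of the interval, the nearest gene, stricter thresholds, the overlap and the motif window. Python 3.11.15, numpy 2.4.6, scipy 1.17.1, pandas 2.3.3, pysam 0.24.0 and samtools 1.23.1 were used.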

Additional observations from a re-analysis of the deposited data

How the results depend on the processing

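No paired analysis was possible because there is 1 library per antibody. In all, 34 alternatives were run over 10 results, and 3 of them, on the number of collagen IV pairs with the same strongest peak, were chosen after seeing the data. Counts were compared by whether they stayed within 1.5 times the reported count, and the median height by whether it stayed within the binomial interval of the median. By these rules 27 of the 34 values held and 7 moved. The 15 matrix genes that passed a q-value of 0.05 became 9 with a start window of 1 kb (52.0% of all protein-coding genes) and 8 when the q-value was tightened to 0.01 (48.7%). At a p-value of 1e-10 or less the count of 5 became 0 (31.8%). The median height was 5 fragments near canonical starts only, against 11 over all protein-coding genes. The 7 genes with an IgG peak became 0 when a q-value of 0.05 was required (3.02%). The consensus was found at 3 summits as reported, in 10 peaks when the whole peak was searched (43.1%), and at 0 summits as CCGGAAG alone. Stricter thresholds and a smaller window can only lower a count, and a longer search can only raise it. In each of these settings the share of matrix genes with a ZBTB11 peak at the p- or q-value threshold was below that of all protein-coding genes. With a median of 6 fragments the counting error is wide, and without another library the variation between preparations is unknown.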
